A study of Caenorhabditis elegans with 2 samples.

Results

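The genes described here encode proteins of the large (60S) subunit of the cytoplasmic ribosome of Caenorhabditis elegans. They were taken by symbol from the Ensembl annotation of WBcel235, as every protein-coding gene named rpl- with digits and dots alone, plus rpl-7A and the stalk genes rla-0, rla-1 and rla-2. This gave 49 genes of 19973 protein-coding genes on the nuclear chromosomes. RefSeq names the products of 47 of them as proteins of the large subunit. The exceptions were rpl-24.2, given as a putative ribosome biogenesis protein RLP24, and rpl-42, given as a NAM-associated domain-containing protein. The symbol rule does not give a complete set, since rpl-36.A and ubq-2 lie outside it.

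Binding of the GATA-type zinc finger transcription factor ELT-3 was assayed by ChIP-seq on whole larvae at L1, the stage that hatches from the egg. The animals were a mixture of both sexes from strain OP75, which carries the unc-119(ed3) mutation on chromosome III and the transgene wgIs75, a stable insertion of ELT-3 fused at its C terminus to GFP and FLAG. There was 1 group with 2 biological replicates and no other stage, genotype or treatment, so no difference between conditions could be measured. ELT-3 is known as a factor of the worm epidermis, whereas ribosomal protein genes are used in every cell, and whole larvae do not show in which cells a region was bound.

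A ribosome joins amino acids in its large subunit, where a core of ribosomal RNA forms the peptidyl transferase centre, the growing chain leaves through an exit tunnel, and a flexible stalk receives the elongation factors. A subunit needs most of its proteins in equal number, and their genes are generally transcribed at a high and matched level. The places within the subunit named below are those known from yeast and mammalian ribosomes. GATA factors recognise the letters GATA with preferred flanking bases.

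The authors listed 30000 regions in replicate 1, 15646 in replicate 2 and 30000 in the pooled replicates, and an optimal set of 253, which were the 253 pooled regions of largest signal. The word peak is used here for the optimal set and region for the longer lists. Signal is the authors' own score per region on a scale that is not stated, and ranks run from 1 for the largest signal of a list. The read depth behind the lists is unknown. The largest signal at elt-3 itself ranked 6 in each replicate and in the pooled list (140.2), in an intron 2687 bp downstream of the gene's 5′ end. The strain also carries elt-3 in its transgene, and whether part of this signal came from that copy was not tested.

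ELT-3 peaks were present at 15 of the 49 genes (30.6%, 95% exact binomial interval 18.3 to 45.4), counting summits within 2000 bp of the 5′ end. Of all protein-coding genes 1.21% had such a peak. The 15 genes shared 14 peaks, because rpl-41.1 and rpl-41.2 lie on either side of the same summit, and these 14 made up 5.53% of the optimal set. The 3 strongest, upstream of rpl-3, rpl-15 and rpl-35, were among the 5 largest of the whole set, and 6 of the 14 were among the 40 largest. In the strongest 253 regions of each replicate taken alone, 11 of the 49 genes had a region in replicate 1 (22.4%, against 1.05% of all genes) and 11 in replicate 2 (22.4%, against 1.3%).

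The sequences under these summits held runs of letters that recurred from gene to gene. Windows of 101 bases centred on the summit are given 5′ to 3′ on the strand of the ribosomal protein gene, from the RefSeq genome WBcel235, which is the assembly ce11 of the lists. Capitals mark runs of at least 10 bases found in at least 3 of the 14 windows, runs of at least 11 bases in at least 2, words of 8 bases in at least 4, and GATA words. The runs were found in these same windows, so their presence there is a description. Every search covered both strands.

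The strongest peak, that of rpl-3, carried the word TACGGTAA, which was also present, on either strand, at the summits of rpl-11.2, rpl-20 and rpl-24.1. The next pair of member peaks by signal, rpl-15 and rpl-35, shared the run GGAGCGTGTTT in the same orientation to the gene.
rpl-3 (chrIII:3867539-3867639, plus strand): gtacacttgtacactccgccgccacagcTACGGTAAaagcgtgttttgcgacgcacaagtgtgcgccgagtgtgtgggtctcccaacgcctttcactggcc
rpl-15 (chrIV:654885-654985, minus strand): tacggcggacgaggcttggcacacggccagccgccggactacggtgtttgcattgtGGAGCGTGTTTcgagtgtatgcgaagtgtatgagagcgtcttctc
rpl-35 (chrIII:7854619-7854719, plus strand): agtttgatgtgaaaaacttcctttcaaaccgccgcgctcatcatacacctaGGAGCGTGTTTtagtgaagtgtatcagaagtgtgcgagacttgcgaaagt

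A run of 15 bases, AACGTTGAATACTCA, was found at 3 summits, those of rpl-39, rpl-7A and rpl-32. It read in the same direction as the gene each time, with its middle 274 bp upstream of rpl-39, 48 bp upstream of rpl-7A and 362 bp upstream of rpl-32. In the rpl-7A window it follows directly on a GATA word, which reads TGATAG on the other strand.
rpl-39 (chrV:7776310-7776410, minus strand): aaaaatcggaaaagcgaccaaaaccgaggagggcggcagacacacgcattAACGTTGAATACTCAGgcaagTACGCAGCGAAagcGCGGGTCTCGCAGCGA
rpl-7A (chrIV:4390631-4390731, minus strand): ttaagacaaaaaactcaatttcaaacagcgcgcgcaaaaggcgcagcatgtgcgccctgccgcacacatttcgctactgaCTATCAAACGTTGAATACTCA
rpl-32 (chrII:9057432-9057532, minus strand): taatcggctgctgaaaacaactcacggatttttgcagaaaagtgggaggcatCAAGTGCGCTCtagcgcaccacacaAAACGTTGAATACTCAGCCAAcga

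The rpl-32 window held a second shared run, AAGTGCGCTC, which was also found at rpl-12 and rpl-20, again in the direction of the gene. At rpl-12 and rpl-20 it extended to AAGTGCGCTCCAC. The rpl-12 window is given without the 20 bases that fall inside the gene.
rpl-12 (chrIV:13240652-13240732, minus strand): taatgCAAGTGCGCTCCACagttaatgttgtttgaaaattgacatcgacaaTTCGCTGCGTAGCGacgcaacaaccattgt
rpl-20 (chrIV:4750040-4750140, minus strand): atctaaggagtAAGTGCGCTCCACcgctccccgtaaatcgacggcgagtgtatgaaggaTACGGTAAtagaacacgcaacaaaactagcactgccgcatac

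Another group, rpl-11.2, rpl-24.1 and rpl-22, shared GAAACGAGTGT in the direction of the gene, with its middle 354, 249 and 229 bp upstream. In rpl-11.2 and rpl-24.1 the run extended to 18 bases, GAAACGAGTGTTACCGTA, whose end overlaps the word shared with rpl-3.
rpl-11.2 (chrX:2242951-2243051, minus strand): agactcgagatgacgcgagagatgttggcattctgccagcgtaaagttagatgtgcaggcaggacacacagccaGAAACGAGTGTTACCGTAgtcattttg
rpl-22 (chrII:5055326-5055426, plus strand): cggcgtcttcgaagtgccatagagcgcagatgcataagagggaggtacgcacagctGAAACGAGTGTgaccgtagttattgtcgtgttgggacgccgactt

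The genes were grouped by place in the subunit after the values were seen. The count of each place stands beside 15 of all 49 genes (30.6%), and differences between places were not tested. Near the peptidyl transferase centre, rpl-3 alone of 3 genes had a peak. Its product uL3 reaches towards the centre from the subunit's surface. The peak lay 265 bp upstream of rpl-3, in a region of chromosome III (3867464 to 3867713) that lies between genes, with a signal of 84.4 in replicate 1 (rank 3) and 91.4 in replicate 2 (rank 1), and of 174 in the pooled list (rank 1). No other protein-coding gene started within 2000 bp of it. The other two genes of this place had a weak region or none. rpl-10, for the late-joining protein uL16, had a pooled region 262 bp upstream with a signal of 19.4 (rank 8599), matched in replicate 2 (11.5) and not in replicate 1. rpl-2, for uL2, had no region within 2000 bp in any list.

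Around the exit tunnel, 3 of 9 genes had a peak. The tunnel is lined by uL4, uL22 and eL39, and other proteins ring its mouth, among them uL29, the product of rpl-35. The rpl-35 peak, 465 bp upstream on chromosome III from 7854544 to 7854793, had a signal of 79.0 in replicate 1 (rank 4) and 67.6 in replicate 2 (rank 7), and of 146 in the pooled list (rank 5). It was also the one pooled region within 2000 bp of rpl-35, and no other protein-coding gene started within that distance. rpl-4, for uL4, had a peak 275 bp upstream on chromosome I from 4647113 to 4647362, with 28.5 in replicate 1, 28.8 in replicate 2 and 58.4 in the pooled list (rank 64). The 5′ end of B0041.8, which is transcribed the other way, was nearer to that summit, at 186 bp. The rpl-39 peak gave 19.7 in replicate 1 and 25.5 in replicate 2, and 45.6 in the pooled list (rank 196).

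That rpl-39 peak lay on chromosome V from 7776235 to 7776484, 281 bp upstream of rpl-39 and 218 bp upstream of rps-30, a gene of the small subunit read in the opposite direction. The summit fell in exons of the annotated non-coding RNAs C26F1.13 and C26F1.14. Of the remaining tunnel genes, rpl-31 followed below the optimal set, with a pooled signal of 34.1 (rank 543) 297 bp upstream and a summit 8 bp from the 5′ end of sac-2. rpl-26 (19.3), rpl-19 (15.8) and rpl-17 (15.0) had weak pooled regions that lay in a coding exon of the neighbour cpf-1 or in introns of rpl-19 and rpl-17. The uL23 pair rpl-25.1 and rpl-25.2 had no pooled region. rpl-25.2 had a region 153 bp upstream in replicate 2 (signal 15.9, rank 1053) and one 518 bp downstream in replicate 1 (8.70, rank 25402), while rpl-25.1 had one in replicate 1 alone (10.5, rank 14453).

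Within the particle that carries the 5S RNA, the uL5 genes differed. rpl-11.2 had the fourth strongest peak of the set of genes, 383 bp upstream on chromosome X from 2242876 to 2243125, with 46.8 in replicate 1 (rank 14), 40.4 in replicate 2 (rank 19) and 88.1 in the pooled list (rank 13). Its paralog rpl-11.1 had no pooled region and a single region of replicate 1, 785 bp upstream (13.2, rank 5960). The last gene of this particle, rpl-5 for uL18, had its strongest pooled region in its own coding sequence, 656 bp downstream of the 5′ end (26.0, rank 1924). That region had a match in replicate 1 (21.1) and none in replicate 2, where the strongest region of rpl-5 lay 393 bp upstream (17.3, rank 724).

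Of the stalk genes, rpl-12 had a peak and the rla genes did not. uL11, the product of rpl-12, forms the base on which the stalk of uL10 (rla-0), P1 (rla-1) and P2 (rla-2) stands. The rpl-12 summit was 31 bp upstream on chromosome IV in the region from 13240557 to 13240806, with 32.5 in replicate 1 (rank 64), 28.9 in replicate 2 (rank 87) and 67.7 in the pooled list (rank 35). It lay 362 bp upstream of the divergent gene lin-54, for a DNA-binding subunit of the DREAM complex. rla-0 (17.2, rank 13989), rla-1 (15.5, rank 20061) and rla-2 (14.5, rank 24660) stood far down the pooled list, and each of their strongest pooled regions lay in a coding exon of a neighbouring gene.

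The genes of eL24 (rpl-24.1) and eL41 (rpl-41.1 and rpl-41.2) had a peak within 2000 bp. Both proteins are among those that touch the small subunit across the joint, and not all such proteins are counted here. Another is eL19, whose gene rpl-19 had no peak. The rpl-24.1 peak was 235 bp upstream on chromosome I from 4584755 to 4585004, in an exon of the non-coding RNA D1007.22, with 27.2 in replicate 1, 21.9 in replicate 2 and 53.1 in the pooled list (rank 107). It also lay 375 bp upstream of the divergent small-subunit gene rps-10. Its paralog rpl-24.2, whose yeast namesake is an assembly factor, had its strongest pooled region 1032 bp downstream in a coding exon of C03D6.1 (25.7, rank 2052). The peak shared by the eL41 genes gave 29.0 in replicate 1, 19.2 in replicate 2 and 45.4 in the pooled list (rank 202). It was 255 bp upstream of rpl-41.2 and 847 bp downstream of the 5′ end of rpl-41.1.

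Among the 27 genes not yet described by place, 6 had a peak. The strongest was that of rpl-15, for eL15, 359 bp upstream on chromosome IV from 654810 to 655059, with 68.0 in replicate 1 (rank 5), 82.3 in replicate 2 (rank 2) and 149 in the pooled list (rank 3). It lay 455 bp upstream of the divergent gene K11H12.8. rpl-20, for eL20, followed at 66.8 (rank 37), with 35.6 in replicate 1 and 27.2 in replicate 2, 312 bp upstream and nearer to the divergent gene Y17G9B.5 (150 bp). Both replicates thus ranked these regions within their strongest 253.

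The other four peaks of this group were weaker. rpl-7A, for eL8, had 13.7 in replicate 1 (rank 4785) and 28.0 in replicate 2 (rank 107), and 45.3 in the pooled list (rank 206). Its summit was 91 bp upstream and 163 bp from the divergent gene set-21. rpl-22, for eL22, went the other way, with 34.1 in replicate 1 (rank 53) and 17.6 in replicate 2 (rank 667), and 43.0 in the pooled list (rank 242). It lay 240 bp upstream, and 197 bp upstream of ify-1, the gene of the mitotic inhibitor securin. rpl-27, for eL27, differed in place, since its peak (45.4, rank 204) was 700 bp downstream of its 5′ end, past the end of the gene, and 78 bp upstream of egl-30, the gene of a Gq protein alpha subunit. rpl-32 closed the list at 42.7 (rank 252), 397 bp upstream, with 22.7 in replicate 1 and 20.7 in replicate 2. The first gene outside the optimal set was rpl-9, 262 bp upstream with 41.3 (rank 276), where the smallest signal of the optimal set was 42.6.

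**Figure D1:**
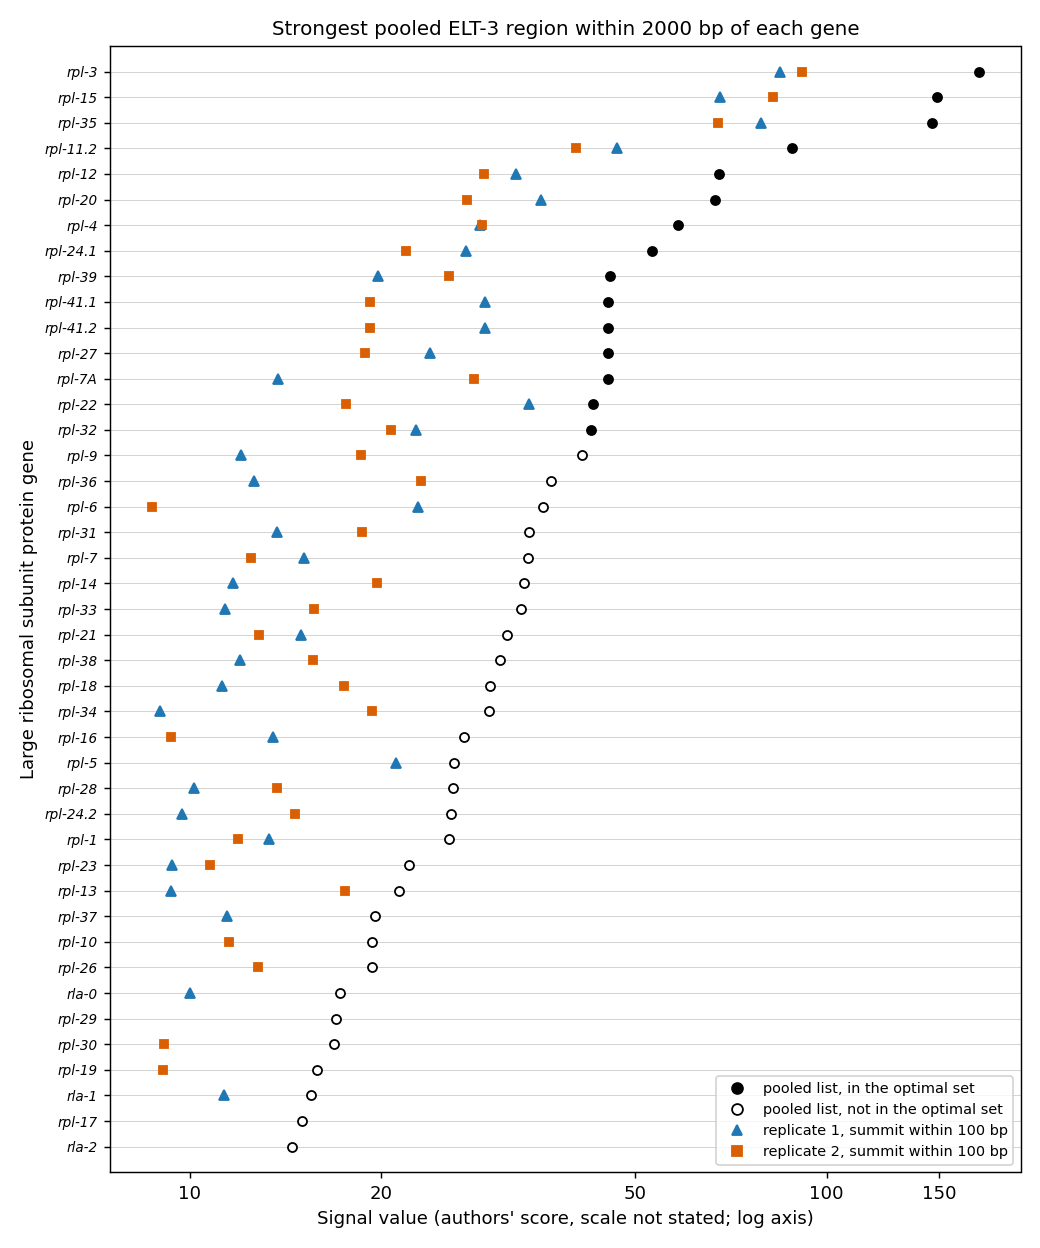
Signal (the authors' score, log axis) of the strongest pooled region within 2000 bp of each of the 43 genes that had one, with the signal of the replicate 1 and replicate 2 regions whose summits lay within 100 bp. The filled circles of the optimal set run from rpl-3 (174) down to rpl-32 (42.7) and the open circles down to rla-2 (14.5), and genes lower in the plot often lack a symbol for a replicate.

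Further down the pooled list, with the peaks included in the counts, these genes were still reached more often than all genes. Of the 49 genes, 25 (51.0%, interval 36.3 to 65.6) had a region among the strongest 1000, against 4.33% of all genes, and 32 (65.3%) among the strongest 5000, against 18.8%. Over the full lists the shares were nearer to those of all genes. They were 43 of 49 in the pooled list (87.8%, against 73%), 44 in replicate 1 (89.8%, against 73.3%) and 41 in replicate 2 (83.7%, against 49.1%). Over the full pooled and replicate 1 lists the excess depended on counting every gene in reach, and over the replicate 2 list it did not. With only the nearest gene counted, the pooled share was 51.0%, against 59.3% of all genes, that of replicate 1 was 59.2%, against 59.8%, and that of replicate 2 was 51.0%, against 37.6%. For the optimal set it was 18.4%, against 0.761%. With every gene counted but only summits within 500 bp, the pooled share was 61.2%, against 31.4%, and that of replicate 1 was 63.3%, against 30.2%. The strongest pooled region per gene had a median rank of 622, or 2.07% of the way down the list, where the same median over all genes with a region was 10736 (35.8%). In the lists of the replicates taken alone the median stood at 10.2% of the replicate 1 list, against 36.5% for all genes, and at 4.30% of the replicate 2 list, against 41.3%.

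**Figure D2:**
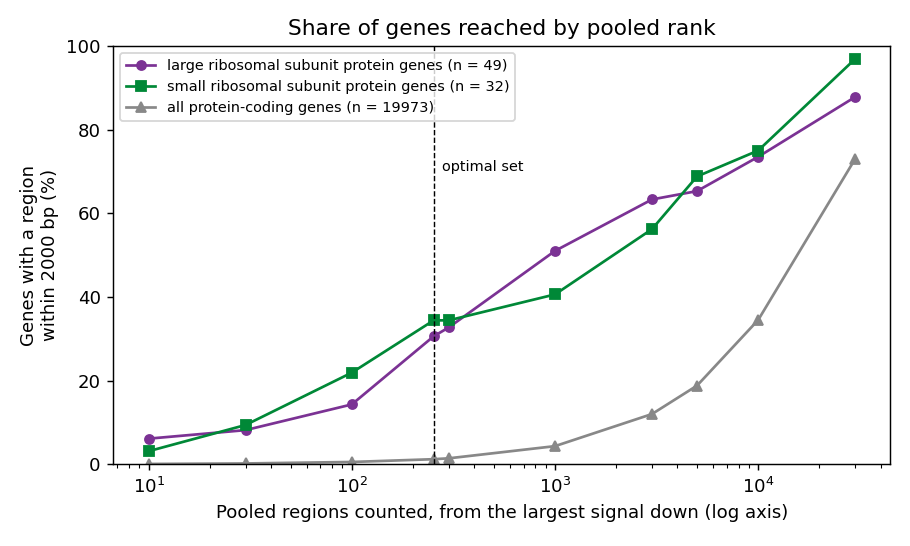
Share of genes with a summit within 2000 bp (vertical axis, %) as pooled regions are counted from the largest signal down (horizontal axis, log scale), for 49 large-subunit genes, 32 small-subunit genes and all 19973 protein-coding genes. At the dashed line of the optimal set the shares were 30.6%, 34.4% and 1.21%, and at the end of the list 87.8%, 96.9% and 73%.

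The pooled ranks from 254 to 1000 held the strongest region of 10 more genes, namely rpl-9, rpl-36, rpl-6, rpl-31, rpl-7, rpl-14, rpl-33, rpl-21, rpl-38 and rpl-18. Their signals ran from 41.3 for rpl-9 to 29.6 for rpl-18, at rank 1000. Of their products, eL6, eL14 and eL33 sit together on the side of the subunit that faces the solvent. The signal was larger in replicate 2 for 7 of the 10, among them rpl-36 (12.6 in replicate 1, 23.0 in replicate 2) and rpl-14 (11.7 and 19.7). rpl-6 was the opposite case, with 22.8 in replicate 1 (rank 319) and 8.72 in replicate 2 (rank 15623), close to the end of that list. For rpl-7, the gene of uL30, the region lay 1345 bp upstream in a coding exon of the Rab GTPase gene rab-11.1 (34.0, rank 551), unlike that of rpl-7A beside its own 5′ end.

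The stronger regions at these genes lay mostly a short way upstream of the 5′ end. Of the 14 peaks, 13 were upstream of the gene and 11 between 200 and 500 bp upstream, with a median of 270 bp. In all, 11 of the 49 genes had a peak 100 to 500 bp upstream, against 0.461% of all genes. Of the 10 genes with pooled ranks from 254 to 1000, 9 had their region in the same band. With the strongest 1000 regions, 20 of 49 genes (40.8%) had a summit there, against 1.31% of all genes, and over the whole pooled list 27 of 49 (55.1%), against 14%. Among genes with a pooled region, the strongest lay in that band for 24 of 43 genes (55.8%), against 12% of 14585. Of the weaker regions, the band held 2 of the 7 at ranks 1001 to 5000 and 2 of the 11 beyond rank 5000.

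**Figure D3:**
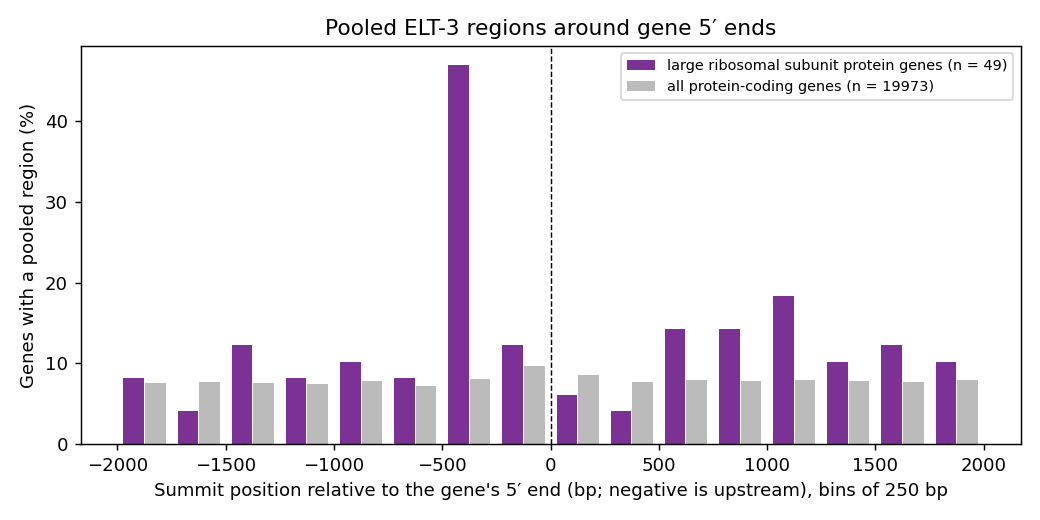
Share of genes (vertical axis, %) with a pooled summit in each bin of 250 bp around the 5′ end (horizontal axis, negative is upstream), for the 49 large-subunit genes and for all 19973 protein-coding genes. The bin from 500 to 250 bp upstream holds 46.9% of the large-subunit genes and 8.07% of all genes, and every other bin holds at most 18.4% of the large-subunit genes.

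Many of these summits faced more than 1 gene. The nearest 5′ end belonged to a large-subunit gene for 9 of the 14 peaks and to another gene for 5, and 10 peaks had a further protein-coding gene within 2000 bp. A gene start read the other way within 1000 bp was present at 28 of the 49 genes, of which 9 had a peak (32.1%), and absent at 21, of which 6 had a peak (28.6%). Ribosomal partners faced each other at rpl-24.1 and rps-10, at rpl-39 and rps-30, and at rpl-36 and rps-14, so the peaks of the first pairs count for both subunits. The peaks themselves lay between genes in 12 of 14 cases.

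Both replicates listed all 14 peaks, with summits at most 53 bp from the pooled summit (median 3.5 bp). In each replicate 10 of the 14 were among the strongest 253 regions, and 8 were so in both. The optimal set was made from these same replicates, so their presence in both is not independent evidence. The 24 regions that were the strongest of their gene and ranked up to 1000 were all matched in both replicates, as were 867 of all 1000 pooled regions of that rank. Over 31 matched regions the signals of the replicates had a Spearman rho of 0.62, given as a description, since all points come from the same 2 libraries. The signal was at least 1.5-fold higher in replicate 2 for 8 of the 31 and at least 1.5-fold higher in replicate 1 for 3, namely rpl-6, rpl-22 and the region shared by rpl-41.1 and rpl-41.2. Of the 14 peaks, 5 were larger in replicate 2 (median ratio over replicate 1 of 0.877), where 47.6% of all matched peaks were. In pooled ranks 254 to 1000, 7 of 10 were larger in replicate 2 (median ratio 1.37), where 43.6% of all matched regions of those ranks were (0.915). Over all 24 regions of ranks up to 1000, 12 were larger in replicate 2, with a median ratio of 0.961.

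**Figure D4:**
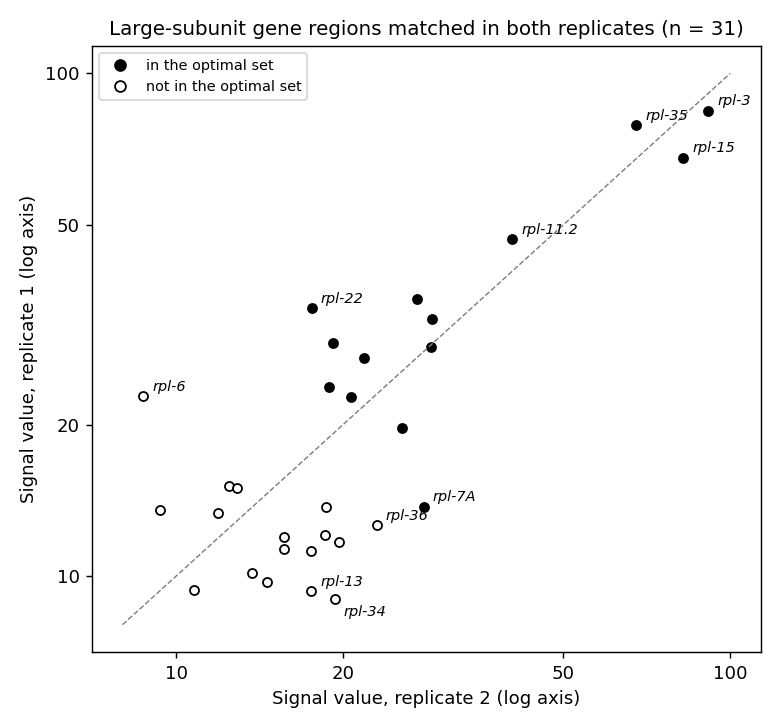
Signal in replicate 1 (vertical) against replicate 2 (horizontal, both log axes) for the 31 strongest pooled regions of large-subunit genes matched in both replicates, with the dashed line marking equal signal. The 4 strongest peaks, ending with rpl-11.2, lie far along the line, while rpl-22 and rpl-6 lie above it (higher in replicate 1) and rpl-7A, rpl-13, rpl-36 and rpl-34 below it (higher in replicate 2).

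GATA words were looked for under these peaks. One of AGATAA or AGATAG or TGATAA or TGATAG, on either strand, lay within 50 bp of 2 of the 14 summits (14.3%), namely the rpl-7A and rpl-24.1 summits. The count was 1 within 25 bp and 4 over the whole region of 250 bp. The share was 42.1% of the other 145 peaks within 2000 bp of a protein-coding gene, and 21.5% of windows of the same length centred 300 bp upstream of all protein-coding genes. At the strongest regions of these genes outside the optimal set it was 6 of 28 (21.4%), against 21.6% of all other pooled regions. The word CGCTCC was known from an earlier look at these data, so its count at the peaks is a description. It was present at 4 of the 14 summits (28.6%), against 10.3% of the other peaks near genes and 1.78% of the upstream windows. These 4 were rpl-15, rpl-35, rpl-12 and rpl-20, and the word or its complement GGAGCG forms part of the longer runs given above for them. At the strongest regions of these genes outside the optimal set CGCTCC was present in 2 of 28 (7.14%), against 1.79% of all other pooled regions. TATAAA and TTTTTTT were found at none of the 14. They were present at 4.14% and 9.66% of the other peaks near genes, and in 12.7% and 23.3% of the upstream windows.

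The windows of the 14 peaks held 51.8% ± 6.1 of G and C bases (SD, n = 14 windows), against 45.6% ± 7.7 in the other peaks near genes (n = 145) and 34.4% ± 8.4 in the upstream windows. Across these sets of windows the share with CGCTCC rose with G and C content, and the shares with TATAAA and TTTTTTT fell. The share with a GATA word did not follow that order (14.3%, 42.1% and 21.5%). The part of base composition in the word shares was not tested.

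Some of the shared runs also stood upstream of ribosomal protein genes outside the windows given above. AACGTTGAATACTCA was present within 500 bp upstream of 12 of 19973 genes (0.0601%). Of the 12, 4 were large-subunit genes, namely rpl-13 and the 3 genes in which the run was found, and 4 were small-subunit genes. The copy at rps-30 is the one already counted for rpl-39, and that at set-21 the one counted for rpl-7A. Separate copies stood upstream of rps-20, which had a peak, and of rpl-13, rps-0 and rps-22, which had none. GAAACGAGTGT was present upstream of 4 large-subunit genes and 4 small-subunit genes, against 0.16% of all genes. Its copy at rps-10 is that of rpl-24.1, and separate copies stood upstream of rps-23, which had a peak, and of rpl-21, rps-7 and rps-29, which had none. AAGTGCGCTC and GGAGCGTGTTT were not found upstream of further genes of either subunit. Among all genes they stood upstream of 127 (0.636%) and 21 (0.105%). The commonest was the word GCGAGACC, which stood within 500 bp upstream of 15 of the 49 genes (30.6%) and 8 of 32 small-subunit genes (25%), against 2.37% of all genes. Copies outside the 14 windows stood at 12 of the 15 and 7 of the 8, and none of these genes had a peak. At the strongest regions of large-subunit genes outside the optimal set, GCGAGACC lay within 50 bp of the summit in 7 of 28 (25%). The share was 2.76% of the other peaks near genes and 0.39% of all other pooled regions. Those 28 regions were not used to find the word, but it was singled out here as the commonest. The other words of 8 bases, CTCGTTTC and TACGGTAA, lay there in 1 (3.57%) and 2 (7.14%) of 28, against 0.467% and 0.35% of all other pooled regions.

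Other genes of translation were counted in the same way. Of all protein-coding genes 1.21% had a peak, and the median pooled rank of those with a region was 10736. A peak was present at 15 of the 49 large-subunit genes (30.6%, median pooled rank 622) and at 11 of 32 small-subunit genes (34.4%, interval 18.6 to 53.2). The strongest of the small-subunit peaks was that of rps-12 (109, rank 9), and the median pooled rank of those genes was 1685. The difference between the subunits was not tested. The products of mitochondrial ribosome genes work in another compartment. Among these genes, 1 of 41 for the large subunit had a peak (2.44%, mrpl-36 with 42.9), and none of 25 for the small subunit. Their median pooled ranks were 9812 and 10246, and these values were near those of all genes. Among 20 genes of large-subunit assembly and the nucleolus 1 had a peak (5%), eif-6 (59.2), and the median rank was 5710. Of 6 elongation factor genes 2 had a peak (33.3%), the strongest being eef-1A.1 (63.2, rank 50). The gene ubq-2, which encodes the large-subunit protein eL40 fused to ubiquitin and lies outside the symbol rule, had a region at rank 980 (29.7).

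The genes without a pooled region within 2000 bp were rpl-2, rpl-11.1, rpl-25.1, rpl-25.2, rpl-42 and rpl-43. For rpl-2, rpl-42 and rpl-43 no list held a region within that distance. Products with the prefix u, which have bacterial counterparts, and those with the prefix e, which do not, both included genes with and without peaks. There were peaks at 5 of 19 uL genes and 7 of 22 eL genes, and at 3 of 8 genes with neither prefix in the RefSeq product name. The prefixes were read from those names alone. The eL41 genes rpl-41.1 and rpl-41.2, and rpl-29 and rpl-32, are named there as 60S ribosomal proteins and so count under neither. The counts therefore do not compare the full classes.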

How the data were processed

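The signal of each region is a score that the authors deposited in narrowPeak lists, with no scale stated in the sources used here. The notes deposited with the files say that each replicate list came from 1 replicate and a control, the pooled list from both replicates and a control, and the optimal set from those lists by IDR (reproducibility of ranked lists). Lists in ce10 and the control experiment named in the labels were not used. Caller, aligner, threshold and read depth: not given in the sources used here. Regions were 250 bp wide (260 bp in replicate 1).

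Summits in ce11 were set against gene 5′ ends (Ensembl release 115), within 2000 bp, and every gene in reach counted. Summits matched between lists within 100 bp. With 1 group no test was run, and counts stand beside those over all 19973 genes, with exact (Clopper-Pearson) 95% intervals that cover counting error only. The counting was checked on simulated data. The members and lists were chosen with earlier results of these data known, and the grouping by place in the subunit after the values were seen. Named were genes with a peak, the 25 of largest pooled signal, those with no pooled region, the stalk genes, paralogs, and genes near the peaks, and other members where their place in the subunit is described. Python 3.11.15, numpy 2.4.6, scipy 1.17.1 and matplotlib 3.10.9 were used.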

Additional observations from a re-analysis of the deposited data

How the results depend on the processing

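Of 33 values under other settings for 8 results, 24 were classed as close to the main value, and that class was wide. It took in a fall from 43 to 30 genes with a pooled region when only summits within 500 bp counted. It also took in a fall from 15 to 11 genes with a peak in either replicate alone, and a median rank of 4.30% in place of 2.07%. With only the nearest gene counted, 9 of the 49 genes had a peak in place of 15, and 25, 29 and 25 had a region of the pooled, replicate 1 and replicate 2 lists in place of 43, 44 and 41. The shares of all genes under that setting were 0.761%, 59.3%, 59.8% and 37.6%. Under it the excess at the 49 genes held for the optimal set and replicate 2 and not for the full pooled and replicate 1 lists. With every gene counted within 500 bp, the full-list shares were 61.2% against 31.4% (pooled) and 63.3% against 30.2% (replicate 1). The upper part of the optimal set, down to its median signal, reached 8 genes, and the strongest 1000 pooled regions 25. Each replicate's strongest 253 regions reached from 11 to 11 genes, and the whole lists from 41 to 44. The median rank of the strongest region, 2.07% of the pooled list, ranged from 4.30% (replicate 2 alone) to 10.2% (replicate 1 alone). GATA words lay within 25 bp of 1 summit and anywhere in the region for 4 peaks, in place of 2. A limit to upstream summits, chosen after seeing the data, left 13 genes. The cause of these shifts was not tested. No paired analysis was possible because there was 1 group. Depth is unknown, so weak regions cannot be told from background here.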
